A study of Mus musculus with 39 samples.

Results

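The genes described here are 10 markers of mast cells and basophils, Mcpt1, Mcpt2, Mcpt4, Mcpt8, Cpa3, Tpsb2, Fcer1a, Ms4a2, Prss34 and Hdc, which are 10 of the 53465 genes in a table of TPM (the share of transcripts a gene makes up, scaled for its length). They were chosen by name, with earlier results of these data known, and each name matched 1 row. A count of members beside the share of all genes is thus a description. The table covers 39 mouse RNA libraries in 13 groups of 3. From APCmin/+ mice, which carry a truncating mutation in 1 copy of the tumour suppressor gene Apc in all cells and are known for intestinal adenomas, there are sorted cells and all cells of the intestine and sorted cells of the spleen. Sorted cells also came from the spleen of BALB/c mice labelled immune-deficient, for which the altered gene is not named, and from the marrow of C57BL/6 mice labelled newborn and P7 (taken as postnatal day 7), for which all marrow cells were measured too. Sorted cells were labelled granulocytic (G), monocytic (M) or combined (G+M) myeloid-derived suppressor cells, the immature myeloid cells that expand in tumour-bearing animals. The intestine has all 4 kinds of sample, each spleen has the 3 sorts, and marrow has the G sort, the M sort and all cells. The labels do not name the markers used to sort, the ages of the APCmin/+ and BALB/c mice, or whether the intestine held tumour. The strain background of the APCmin/+ mice is not named either. Tissue cannot be told apart from genotype and age between marrow and the other sites, nor the Apc allele from strain and immune deficiency between the spleens. Nothing says that replicates came from separate animals, so a p-value measures the spread between these libraries, which may be technical.

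Mast cells mature in tissues and basophils in marrow, and both carry the high-affinity receptor for immunoglobulin E and granules of histamine and proteases. In mice, mucosal mast cells of the gut lining are known for the chymases Mcpt1 and Mcpt2, connective tissue mast cells for the chymase Mcpt4 and the tryptase Tpsb2, and basophils for the proteases Mcpt8 and Prss34. The carboxypeptidase Cpa3, the receptor subunits Fcer1a and Ms4a2, and Hdc, the enzyme that makes histamine, are used by both cell types. Hdc is also known in immature myeloid cells of the marrow.

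The 4 Mcpt genes lie close together on chromosome 14 of GRCm38 (mm10), the build of the files. Mcpt1 spans chr14:56017971-56020384 and Mcpt2 chr14:56042041-56044642 on the plus strand, while Mcpt4 spans chr14:56059629-56062313 and Mcpt8 chr14:56082166-56085273 on the minus strand. Prss34 (chr17:25298394-25300165) and Tpsb2 (chr17:25366305-25369098) both lie on the plus strand of chromosome 17. Cpa3 lies at chr3:20215620-20242181, Fcer1a at chr1:173221284-173227214, Ms4a2 at chr19:11615523-11623719 and Hdc at chr2:126593667-126619299, all on the minus strand. Of the 75-base windows along the transcripts of each gene, which is the length of a read, 2.51% of those of Mcpt4 were identical to a stretch of Cma2 and 1.22% of those of Ms4a2 to a stretch of Ms4a4b. The other 8 genes shared no such window with another gene. Only exact matches were searched, so stretches that differ at a few bases were not examined.

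The 250 bases before the start of 3 members are printed because they belong to a mucosal, a connective tissue and a basophil protease whose levels differed in site. They are RefSeq sequences of GRCm38.p6, counted from the RefSeq start and written 5′ to 3′ on the gene's own strand. Capitals mark GATAA, the core that factors of the GATA family recognise. Mcpt1 is at chr14:56017714-56017963 (plus), Mcpt4 at chr14:56062311-56062560 (minus) and Prss34 at chr17:25298144-25298393 (plus).
Mcpt1: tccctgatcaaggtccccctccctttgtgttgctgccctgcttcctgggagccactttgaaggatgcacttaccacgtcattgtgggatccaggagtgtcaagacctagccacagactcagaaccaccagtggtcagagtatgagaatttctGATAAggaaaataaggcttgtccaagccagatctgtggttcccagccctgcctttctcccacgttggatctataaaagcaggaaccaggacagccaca
Mcpt4: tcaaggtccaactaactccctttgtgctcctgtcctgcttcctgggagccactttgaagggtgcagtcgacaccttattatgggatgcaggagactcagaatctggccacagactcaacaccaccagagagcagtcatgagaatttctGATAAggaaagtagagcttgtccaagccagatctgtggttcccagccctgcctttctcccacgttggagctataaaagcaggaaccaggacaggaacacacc
Prss34: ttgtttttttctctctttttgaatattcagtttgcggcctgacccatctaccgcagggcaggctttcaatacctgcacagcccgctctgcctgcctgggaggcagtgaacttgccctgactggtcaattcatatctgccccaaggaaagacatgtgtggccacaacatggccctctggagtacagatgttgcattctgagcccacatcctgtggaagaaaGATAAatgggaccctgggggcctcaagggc
Mcpt1 and Mcpt4 share the 22-base run atgagaatttctGATAAggaaa, which begins 110 bases before the start of Mcpt1, and their longest common run is 53 bases. GATAA, searched on both strands, stood in 6 of the 8 members that have an entry in the RefSeq table (Mcpt1, Mcpt4, Cpa3, Fcer1a, Ms4a2 and Prss34) and in 22.6% of all 32851 promoters of that length. CATGTG, an E-box searched on both strands, stood in 2 of the 8 (Fcer1a and Prss34) and in 12.3% of all promoters. These matches are a description of the letters in the window.

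The libraries had between 21551 and 24910 genes above 0. TPM values hold no read depth, so the depth behind each value is unknown and no counting interval can be given. A summed level of 10 neutrophil marker genes ran from 28.17 to 762.21 TPM in the 12 intestinal libraries and from 5513.41 TPM upward in the other 27, so neutrophil transcripts were scarce in the intestinal sorts, the granulocytic one included. A summed level of 10 epithelial markers averaged 14160 ± 859.7, 12870 ± 328.7 and 11890 ± 1769 TPM in the intestinal G, M and combined sorts and 11830 ± 1799 TPM in all intestinal cells (SD, n = 3 each). All 10 members passed the filter on low values used for the tests (at least 1 TPM in at least 3 libraries). Hdc reached 1 TPM in 37 libraries, Cpa3 in 22, Mcpt8 in 17, Ms4a2 in 16, Prss34 in 14, Mcpt1 in 13, Mcpt2 in 12, Tpsb2 in 10, Fcer1a in 6 and Mcpt4 in 5. In these bulk libraries, fewer cells of a type and less RNA per cell cannot be told apart.

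**Figure D1:**
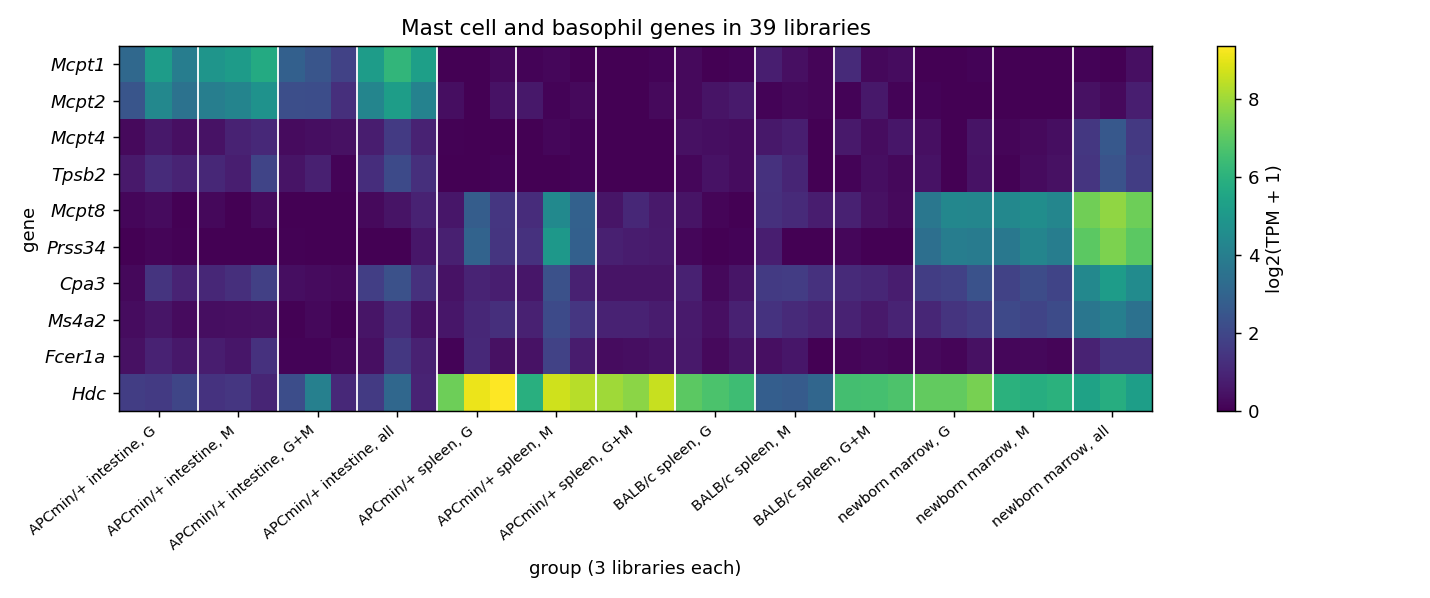
Level of each of the 10 genes (rows) in each of the 39 libraries (columns, 3 to a group, with white lines between groups), as log2(TPM + 1) by colour. Mcpt1 and Mcpt2 are bright in the intestinal libraries, Mcpt8 and Prss34 in marrow and in some APCmin/+ spleen libraries, and Hdc in spleen and marrow libraries.

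The mucosal mast cell chymase Mcpt1 was an intestinal transcript in these data. It had 7.86, 35.53 and 14.5 TPM in the intestinal G sort, 28.38, 34 and 52.26 TPM in the M sort, 6.39, 4.5 and 2.64 TPM in the combined sort, and 34.69, 71.01 and 38.42 TPM in all intestinal cells. Outside the intestine no library exceeded 1.15 TPM, so the 12 intestinal and the 27 other libraries did not overlap. Mcpt2, the neighbouring mucosal chymase, had 4.57, 19.45 and 10.45 TPM in the intestinal G sort, 14.92, 17.58 and 26.53 TPM in the M sort, 3.78, 3.62 and 1.38 TPM in the combined sort, and 18.11, 35.89 and 16.69 TPM in all cells. It too was apart from the other sites, where no library exceeded 0.73 TPM. Mcpt1 stood 1.24 to 2.3 times as high as Mcpt2 in each of the 12 intestinal libraries. For both genes the order of the intestinal means ran from the combined sort through the G sort and the M sort to all cells, and among these neighbours the libraries of the combined and G sorts alone did not overlap.

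Against APCmin/+ spleen, both chymases were higher in the intestine in each of the 3 sorts. A gene was called where limma's adjusted p (Benjamini-Hochberg over 18466 genes) was under 0.05 and the change of log2(TPM + 1) was at least 1. In the G sorts 5 of the 10 members were called, 2 higher and 3 lower, where 40.8% of all genes tested were called. Mcpt1 showed a log2 fold change of 4.03 ± 0.33 (SE, adjusted p = 3.23e-12) and Mcpt2 one of 3.18 ± 0.31 (adjusted p = 2.45e-10). In the M sorts 7 members were called, 3 higher and 4 lower, against 39.9% of all genes, and the log2 fold changes were 5.16 ± 0.33 for Mcpt1 and 4.02 ± 0.31 for Mcpt2 (adjusted p = 1.51e-14 and 1.79e-12). In the combined sorts 3 members were called, 2 higher and 1 lower, against 39.3% of all genes, and the values were 2.37 ± 0.33 for Mcpt1 and 1.83 ± 0.31 for Mcpt2 (adjusted p = 1.88e-07 and 7.05e-06). The median of all genes was -0.16, -0.43 and -0.15 in the G, M and combined sorts. Because the splenic values are near 0, these folds understate the change: with a pseudocount of 0.1 TPM Mcpt1 had 6.91 in the G sorts, 7.93 in the M sorts and 5.21 in the combined sorts.

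Within the intestine the combined sort held less of the mucosal chymases than all cells. Mcpt1 changed by -3.14 ± 0.33 on the log2 scale (limma, adjusted p = 1.68e-06) and Mcpt2 by -2.63 ± 0.31 (adjusted p = 4.89e-06), and the libraries of the 2 groups did not overlap for either. Cpa3 changed by -1.52 ± 0.33 (adjusted p = 0.00275) and Tpsb2 by -1.06 ± 0.28 (adjusted p = 0.0188), which makes 4 members lower and 0 higher, where 3.24% of all genes were called and 3.23% were called lower. In a fit of these 6 libraries alone none of the 4 passed, with adjusted p of 0.0902 for Mcpt1, 0.119 for Mcpt2, 0.121 for Cpa3 and 0.243 for Tpsb2, and Tpsb2 also missed the threshold without all-cell library 2 (-0.78), combined library 1 (-1.08) or combined library 3 (-0.88). Other immune transcripts had lower means as well. A sum of T and NK cell markers averaged 9.713 ± 4.47 TPM in the combined sort and 56.9 ± 1.532 TPM in all cells, and Fcer1g, the signalling chain shared by several Fc receptors, averaged 12.26 ± 2.669 and 46.03 ± 20.34 TPM. Mitochondrial genes took 15.54 ± 0.7476% of the TPM in the combined sort and 10.87 ± 1.662% in all cells (SD, n = 3 each). Their part in the result was not tested.

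In the G sort against all intestinal cells, Mcpt1 changed by -1.45 ± 0.33 (limma, adjusted p = 0.00249) and Mcpt2 by -1.09 ± 0.31 (adjusted p = 0.0175), 2 members lower where 5.38% of all genes were called and 5.23% were called lower. The libraries overlapped for both genes. Both calls were lost without G library 1, which had the least of both genes (-0.97 and -0.60), and the call of Mcpt2 was also lost without all-cell library 2 (-0.75). In a fit of these 6 libraries alone the adjusted p was 0.239 for Mcpt1 and 0.321 for Mcpt2. In the M sort against all cells 0 members were called by limma, 0 had an unadjusted p under 0.05, and 4.42% of all genes were called. The log2 fold change there was -0.30 ± 0.33 for Mcpt1 and -0.20 ± 0.31 for Mcpt2. Summed markers of other cells differed between the G sort and all cells too. B and plasma cell markers averaged 443.5 ± 168.3 TPM in the G sort and 2657 ± 1647 TPM in all cells, monocyte markers 119.7 ± 24.27 and 279.1 ± 50.81 TPM, and mitochondrial genes took 16.1 ± 3.555% and 10.87 ± 1.662% of the TPM. Their part in the result was not tested.

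Between the intestinal G and M sorts, Mcpt1 alone of the 10 passed, at -1.15 ± 0.33 (limma, adjusted p = 0.0297), where 2.83% of all genes were called. It was lower in G in 2 of the 3 numbered pairs, since library 2 had 35.53 TPM in the G sort and 34 TPM in the M sort. The call was lost without G library 1 (-0.67), M library 2 (-1.21), G library 3 (-1.08) or M library 3 (-0.91), and in the fit of these 6 libraries (adjusted p = 0.357). Mcpt2 had -0.88 ± 0.31 (adjusted p = 0.0948). Fcer1g was lower in G with them (-1.51 ± 0.27, adjusted p = 0.000418), and so was Gzmb, a granzyme of cytotoxic lymphocytes and of mucosal mast cells, at 14.16, 7.28 and 6.5 TPM in G and 55.52, 10.45 and 27.31 TPM in M (-1.43 ± 0.38, adjusted p = 0.0171). Summed B and plasma cell markers averaged 443.5 ± 168.3 TPM in G and 5174 ± 499.4 TPM in M, monocyte markers 119.7 ± 24.27 TPM in G and 608 ± 61.96 TPM in M, and T and NK cell markers 45.36 ± 15.53 TPM in G and 146 ± 94.17 TPM in M. Their part in the result was not tested.

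**Figure D2:**
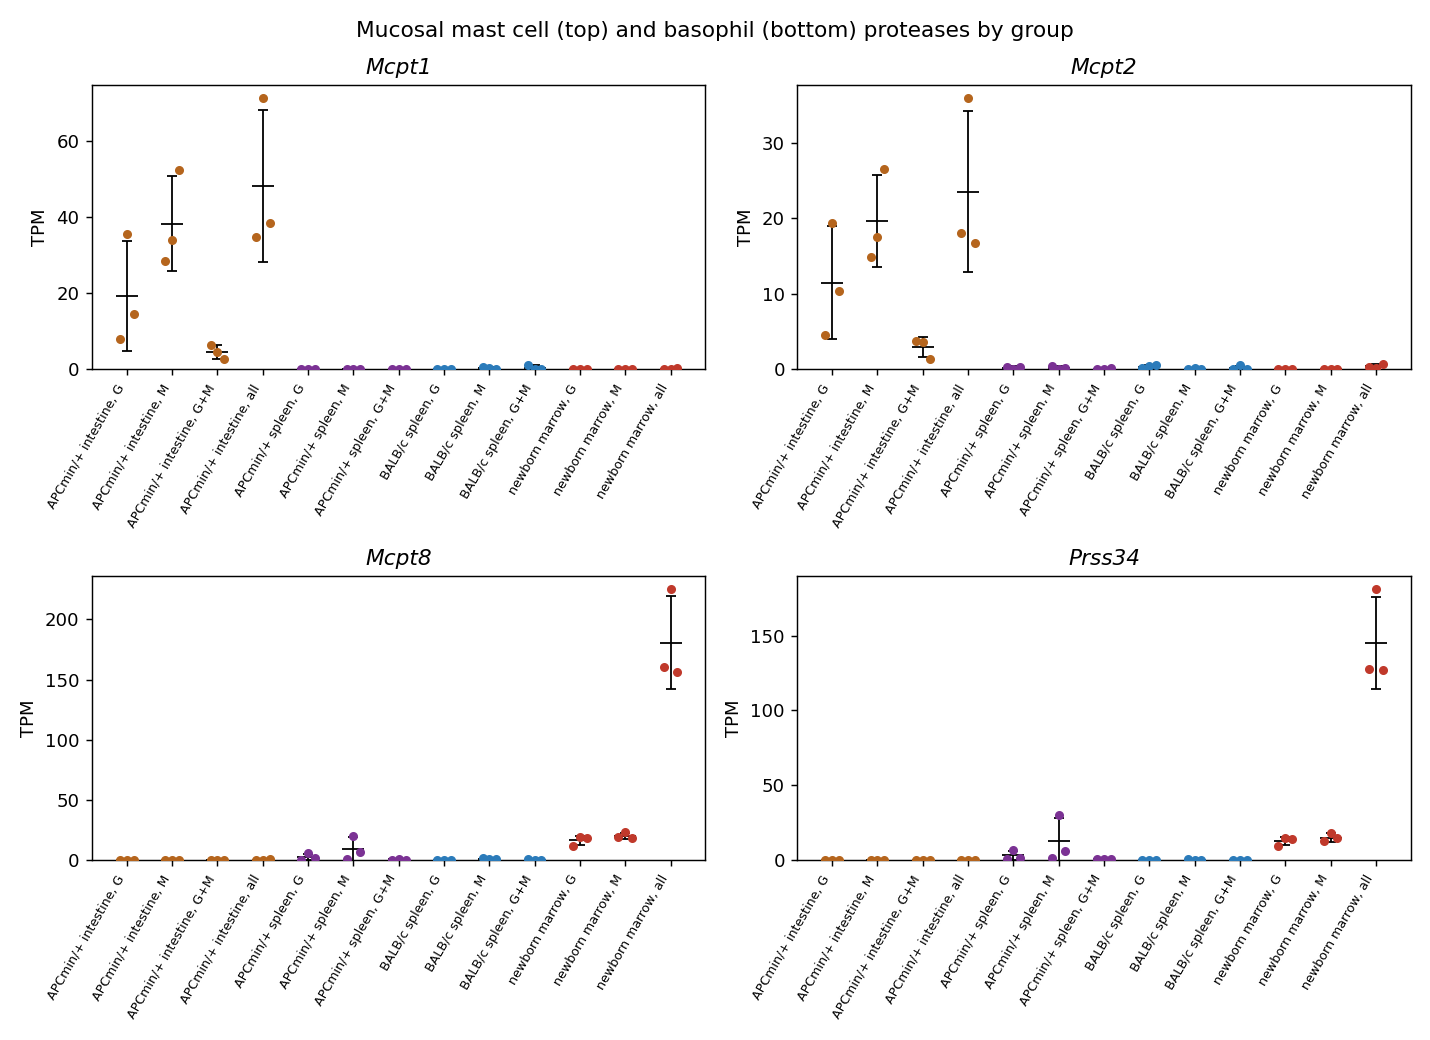
TPM of 4 proteases in each library (points, coloured by site) with the mean and SD of each group of 3 (black bars), for the 13 groups along the horizontal axis. The mucosal chymases Mcpt1 and Mcpt2 are high in the intestinal groups and near 0 elsewhere, and the basophil proteases Mcpt8 and Prss34 peak in all marrow cells, with 1 high point in the APCmin/+ splenic M sort.

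The connective tissue mast cell proteases were low at each site. Mcpt4 had 0.32, 0 and 0.41 TPM in the marrow G sort, 0.08, 0.17 and 0.26 TPM in the M sort, and 1.89, 4.97 and 1.92 TPM in all marrow cells. Tpsb2, a tryptase, had 0.39, 0 and 0.36 TPM in the marrow G sort, 0.04, 0.22 and 0.35 TPM in the M sort, and 1.72, 4.3 and 2.21 TPM in all marrow cells. For both genes all 3 all-cell libraries lay above the 6 sorted ones, and all-cell library 2 was the highest of the 39. Against all marrow cells Mcpt4 changed by -1.59 (G) and -1.66 (M) on the log2 scale (SE 0.22 each; limma, adjusted p = 5.96e-07 and 3.6e-07), and Tpsb2 by -1.54 (G) and -1.59 (M) (SE 0.28 each; adjusted p = 3.35e-05 and 2.48e-05). In the intestine Mcpt4 averaged 0.34 ± 0.1808 TPM in the G sort and 0.78 ± 0.3635 TPM in the M sort. It averaged 0.27 ± 0.07 TPM in the combined sort and 1.18 ± 0.7227 TPM in all cells. No intestinal library of Mcpt4 exceeded 2.01 TPM, while Mcpt1 reached 71.01 TPM there. Tpsb2 averaged 0.9033 ± 0.3253, 1.513 ± 1.091, 0.4067 ± 0.35 and 1.997 ± 1.086 TPM in the same 4 groups. Both are listed at 0 in all 3 libraries of the APCmin/+ splenic combined sort. In the BALB/c splenic G, M and combined sorts Mcpt4 averaged 0.2867, 0.42 and 0.4267 TPM, and Tpsb2 0.2533, 0.8267 and 0.1533 TPM. Both genes had lower means in the APCmin/+ splenic sorts, without overlap in the G and combined sorts, and neither was called in the main fit. Tpsb2 came to -0.74 ± 0.28 in the M sorts (limma, adjusted p = 0.0371), under the fold minimum. Tpsb2 was higher in the intestinal M sort (1.05, 0.73 and 2.76 TPM) than in the APCmin/+ splenic M sort (0, 0 and 0.06 TPM), with a log2 fold change of 1.22 ± 0.28 (adjusted p = 0.00031) that went to 0.89, under the fold minimum, without intestinal M library 3 and to 3.58 with a pseudocount of 0.1 TPM.

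The basophil proteases were most abundant in marrow, and the marrow sorts held less of them than all marrow cells. Mcpt8 had 12.19, 19.01 and 18.4 TPM in the marrow G sort and 19.61, 23.11 and 18.48 TPM in the M sort, against 160.58, 225.04 and 156.6 TPM in all marrow cells. Prss34 had 9.74, 14.82 and 13.85 TPM in the G sort and 12.52, 18.3 and 14.5 TPM in the M sort, against 128.03, 180.84 and 127.05 TPM in all cells. No sorted library came near the all-cell libraries for either gene, and the G and M libraries overlapped. Against all cells Mcpt8 changed by -3.38 (G) and -3.07 (M) on the log2 scale (SE 0.46 each; limma, adjusted p = 4.24e-07 and 2.24e-06). Prss34 changed by -3.41 (G) and -3.18 (M) (SE 0.49 each; adjusted p = 9.92e-07 and 3.38e-06). Mcpt8 stood 1.23 to 1.25 times as high as Prss34 in the 3 all-cell libraries, 1.25 to 1.33 times in G libraries and 1.26 to 1.57 times in M libraries.

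In all, 7 of the 10 members were called in the marrow G sort against all cells, 6 lower and 1 higher, where 19.1% of all genes were called, 9.49% lower and 9.65% higher. In the M sort 7 were called, all lower, where 19.1% of all genes were called and 11.2% were called lower. The median log2 fold change of the members was -1.56 (G) and -1.62 (M), and that of all genes was -0.03 and -0.10. Without each library in turn, the calls of the G sort held, and in the M sort Fcer1a alone lost its call. Sums of eosinophil markers and of erythroid and megakaryocyte markers had lower means in both sorts too. The eosinophil sums overlapped between the M sort and all cells. Not every other lineage fell. B and plasma cell markers were higher in the G sort (1353 ± 86.11 TPM) than in all cells (646 ± 39.57 TPM), without overlap. In the M sort they averaged 207.6 ± 35.44 TPM. A sum of eosinophil markers averaged 535.7 ± 142.3 TPM (G), 977 ± 145.3 TPM (M) and 1757 ± 1153 TPM (all cells), and a sum of erythroid and megakaryocyte markers averaged 837 ± 138.8, 374.5 ± 107.4 and 23150 ± 5650 TPM in the same order (SD, n = 3 each). Their part in the result was not tested. Between the marrow G and M sorts 0 members were called by limma, where 10.2% of all genes were, and 2 had an unadjusted p under 0.05, namely Ms4a2 and Hdc.

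**Figure D3:**
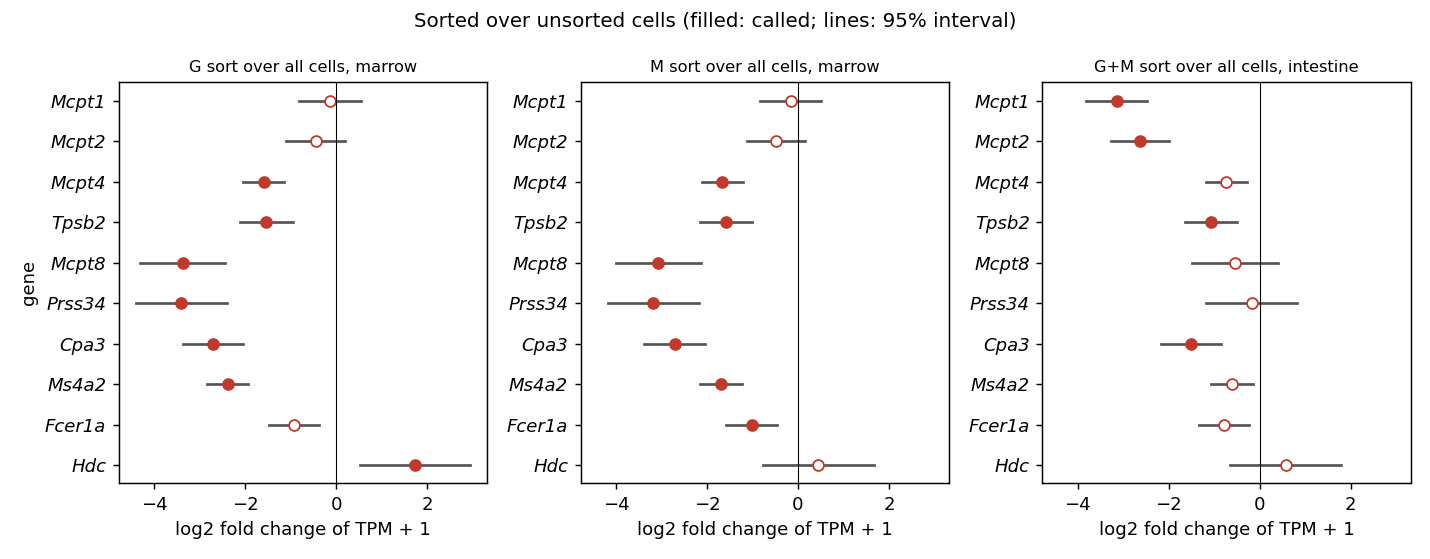
Log2 fold change of TPM + 1 of each member (rows) in the marrow G sort, the marrow M sort and the intestinal combined sort (G+M), each over all cells of its site. Points are the fitted values from limma, filled where called, and lines are 95% intervals. Mcpt8 and Prss34 lie near -3 in the marrow panels, and Mcpt1 and Mcpt2 lie lowest in the intestinal panel.

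In the spleen the basophil proteases were higher in the APCmin/+ G and M sorts than in the BALB/c ones, with wide spread. In the M sorts Mcpt8 had 1.3, 20.52 and 6.51 TPM in APCmin/+ spleens, against 1.44, 1.19 and 0.69 TPM in BALB/c spleens. Prss34 had 1.54, 30.41 and 6.27 TPM in APCmin/+ spleens, against 0.72, 0 and 0 TPM in BALB/c spleens. APCmin/+ library 2 was far above the others, and for Mcpt8 the groups overlapped, since APCmin/+ library 1 lay below the highest BALB/c library. In the M sorts 3 of the 10 members passed, all higher, where 11.5% of all genes were called and 5.51% were called higher. Mcpt8 showed a log2 fold change of 1.79 ± 0.46 (limma, adjusted p = 0.00275) and Prss34 one of 2.80 ± 0.49 (adjusted p = 4.68e-05). Without APCmin/+ M library 2 they were 1.00 (adjusted p = 0.0695) and 1.84 (adjusted p = 0.000632), and in a fit of the 6 libraries alone neither passed (adjusted p = 0.184 and 0.105).

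The splenic G sorts differed in the same direction at lower levels. Mcpt8 had 0.49, 5.82 and 1.79 TPM in APCmin/+ G libraries, against 0.4, 0.09 and 0 TPM in BALB/c ones (1.41 ± 0.46, limma, adjusted p = 0.0202). Prss34 had 0.79, 6.94 and 1.74 TPM in APCmin/+ G libraries, against 0.11, 0 and 0.06 TPM in BALB/c ones (1.68 ± 0.49, adjusted p = 0.00938). These groups did not overlap, and with Hdc they made 3 members called, all higher, where 8.87% of all genes were called and 3.1% were called higher. Both calls were lost without APCmin/+ G library 2 (0.82 and 1.07) and in the fit of the 6 libraries alone (adjusted p = 0.155 and 0.105), and that of Mcpt8 also without BALB/c G library 2 (1.37) or 3 (1.30). In the combined sorts 0 members were called by limma, 9% of all genes were, and 2 members had an unadjusted p under 0.05, Hdc (higher) and Mcpt4 (lower). Mcpt8 had 0.45, 1.06 and 0.56 TPM in APCmin/+ combined libraries and 0.83, 0.34 and 0.19 TPM in BALB/c ones. Prss34 had 0.75, 0.65 and 0.58 TPM against 0.11, 0 and 0 TPM, without overlap. Its log2 fold change was 0.68 ± 0.49 (limma, adjusted p = 0.33), and with a pseudocount of 0.1 TPM it was called (2.56, adjusted p = 0.0155).

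Markers of immature marrow cells differed between these libraries. A sum of primary granule genes of neutrophil precursors was 32.15, 404.97 and 116.67 TPM in the APCmin/+ M libraries and 6.6, 63.88 and 23.85 TPM in the APCmin/+ G libraries, against 46.48, 90.09 and 79.27 TPM in BALB/c M libraries and 6.92, 9.32 and 8.39 TPM in BALB/c G libraries. Library 2 was the highest of its group in both APCmin/+ sorts, as for Mcpt8, and libraries 3 and 1 followed in the order of Mcpt8. The sum of neutrophil markers had the same order. It was 38703.35, 123054.89 and 99087.31 TPM in APCmin/+ M libraries and 24506.27, 136903.41 and 57459.6 TPM in APCmin/+ G libraries. In BALB/c M libraries the order differed, since the granule sum was highest in library 2 and Mcpt8 in library 1. Gata1, a transcription factor of erythroid, megakaryocyte, eosinophil, mast and basophil lineages, was 26.01, 65.38 and 11.57 TPM in APCmin/+ M libraries and 3.97, 5.64 and 3.81 TPM in BALB/c M libraries (2.38 ± 0.43, adjusted p = 6.8e-05). The sum of erythroid and megakaryocyte markers was 5368.64, 5266.48 and 1187.23 TPM in APCmin/+ M libraries and 1438.69, 737.92 and 1546.03 TPM in BALB/c M libraries. Gata1 and this sum did not follow Mcpt8 among the APCmin/+ M libraries, since library 3 had less of both than library 1 and more Mcpt8. Their part in the result was not tested.

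Between the splenic G and M sorts of APCmin/+ mice 0 members were called by limma, where 3.22% of all genes were, and 3 had an unadjusted p under 0.05. Mcpt8 had -1.24 ± 0.46 (adjusted p = 0.0541) and Prss34 -1.30 ± 0.49 (adjusted p = 0.0575), and both were lower in G in 3 of 3 numbered pairs. Same-numbered G and M libraries deviated together there, and with the replicate number as a block both passed, with adjusted p of 0.000116 for Mcpt8 and 7.26e-05 for Prss34 at the same fold changes, where 3.54% of all genes were called. The difference of the G against M effect between intestine and APCmin/+ spleen was called for 0 members by limma, where 8.52% of all genes were called, and 1 member had an unadjusted p under 0.05. With the replicate number as a block, which pairs the libraries at both sites, 3 members were called, where 9.73% of all genes were, with adjusted p of 0.0369 for Mcpt1, 0.00354 for Mcpt8 and 0.00152 for Prss34. In the intestine Mcpt8 did not exceed 0.88 TPM and Prss34 did not exceed 0.47 TPM in any library. Mcpt8 was lower in the intestinal than in the APCmin/+ splenic M sort (-2.68 ± 0.46, adjusted p = 6.17e-06) and G sort (-1.46 ± 0.46, adjusted p = 0.00579), and the G call was lost without splenic G library 2 (-0.88) and in a fit of those 6 libraries alone (adjusted p = 0.0551). Prss34 is listed at 0 in all 3 intestinal M libraries and in the G sorts changed by -1.70 ± 0.49 (adjusted p = 0.00288), a call also lost without splenic G library 2 (-1.08).

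Cpa3 and Ms4a2, used by mast cells and basophils alike, were most abundant in all marrow cells. Cpa3 had 2.24, 2.54 and 4.19 TPM in the marrow G sort and 2.57, 3.49 and 2.74 TPM in the M sort, against 19.5, 35.41 and 21.69 TPM in all marrow cells. Ms4a2, the beta subunit of the immunoglobulin E receptor, had 1.01, 1.64 and 2.05 TPM in the G sort and 3.14, 2.77 and 3.42 TPM in the M sort, against 11.7, 15.44 and 10.13 TPM in all cells. Neither gene's sorted libraries overlapped with the all-cell ones. Cpa3 changed by -2.72 (G) and -2.71 (M) (SE 0.33 each; limma, adjusted p = 5.23e-08 and 7.22e-08), and Ms4a2 by -2.39 (G) and -1.69 (M) (SE 0.22 each; adjusted p = 6.7e-10 and 3.23e-07). Between the marrow sorts Ms4a2 was lower in G without overlap, at -0.70 ± 0.22 (adjusted p = 0.0164), under the fold minimum.

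In the intestine Cpa3 had 0.16, 1.63 and 0.91 TPM in the G sort, 1.08, 1.41 and 2.43 TPM in the M sort, 0.26, 0.2 and 0.17 TPM in the combined sort, and 2.36, 3.99 and 1.47 TPM in all cells. Its level was 0.0381 to 0.0465 times that of Mcpt1 in the intestinal M sort and 0.0383 to 0.068 times in all cells. In marrow Cpa3 stood at 0.134 to 0.228 times Mcpt8 in G libraries, 0.131 to 0.151 times in M libraries and 0.121 to 0.157 times in all-cell libraries. In BALB/c spleen Cpa3 had 0.8, 0.14 and 0.46 TPM in the G sort and 2.04, 2.2 and 1.5 TPM in the M sort without overlap (-1.01 ± 0.33, limma, adjusted p = 0.0286). With Hdc that made 2 members called, 1 lower and 1 higher, where 4.94% of all genes were called. The call of Cpa3 was lost without G library 2 (-0.84), G library 3 (-1.02), M library 1 (-0.97) or M library 2 (-0.94).

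Fcer1a, the subunit that binds immunoglobulin E, was low in each library. It had 0.18, 0.08 and 0.33 TPM in the marrow G sort and 0.11, 0.15 and 0.1 TPM in the M sort, against 0.88, 1.5 and 1.49 TPM in all marrow cells. Its highest library, at 2.59 TPM, was APCmin/+ splenic M library 2, which was also the highest splenic library for Mcpt8, Prss34, Cpa3 and Ms4a2. In marrow Fcer1a changed by -1.02 ± 0.27 in the M sort (limma, adjusted p = 0.00227) and by -0.93 ± 0.27 in the G sort (adjusted p = 0.00488), which is under the fold minimum. The M call was lost without all-cell library 2 or all-cell library 3 (-0.95 each). Ms4a2 in the intestine did not exceed 1.23 TPM, and its M sort was lower than that of APCmin/+ spleen (-1.10 ± 0.22, adjusted p = 6.72e-05), a call lost without splenic M library 2 (-0.79).

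Between all cells of the intestine and of newborn marrow, 7 of the 10 members were called, 2 higher and 5 lower, where 39.3% of all genes were called. Mcpt1 had 5.38 ± 0.33 and Mcpt2 4.06 ± 0.31, while Mcpt8 had -6.94 ± 0.46, Prss34 -6.99 ± 0.49, Ms4a2 -3.01 ± 0.22, Cpa3 -2.89 ± 0.33 and Hdc -3.60 ± 0.59 (limma, adjusted p from 4.97e-15 to 3.49e-06). Tissue, genotype and age cannot be told apart in this comparison.

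Hdc, which encodes histidine decarboxylase, the enzyme of histamine synthesis, reached the highest level of any member in a single library (655.62 TPM) and followed another order over the groups than the proteases. In all marrow cells it averaged less than Mcpt8 and Prss34, and in the intestinal G sort, M sort and all cells less than Mcpt1 and Mcpt2. In the intestine it had 2.27, 2.01 and 2.84 TPM in the G sort, 1.6, 1.78 and 0.96 TPM in the M sort, 3.62, 15.7 and 1.1 TPM in the combined sort, and 1.98, 7.74 and 0.92 TPM in all cells. In APCmin/+ spleens it had 155.49, 546.8 and 655.62 TPM in the G sort, 59.2, 406.44 and 321.99 TPM in the M sort, and 261, 213.51 and 376.12 TPM in the combined sort. The 9 splenic libraries all lay above the 12 intestinal ones, and within the spleen libraries 1 of the G and M sorts were far below the others of their group. In BALB/c spleens it had 127.12, 103.59 and 86.64 TPM in the G sort, 5.88, 5.41 and 7.43 TPM in the M sort, and 94.26, 97.05 and 107.45 TPM in the combined sort. The BALB/c M sort stood apart from the other BALB/c sorts and overlapped with intestinal levels. In marrow it had 136.56, 138.71 and 171.67 TPM in the G sort, 62.66, 56.25 and 61.66 TPM in the M sort, and 40.67, 55.62 and 36.74 TPM in all cells, 3 groups without overlap.

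Hdc was lower in the intestine than in APCmin/+ spleen in each sort, by -6.84 ± 0.59 in G, -6.36 ± 0.59 in M and -5.67 ± 0.59 in the combined sort (limma, adjusted p = 1.35e-11, 8.43e-11 and 8.29e-10). Against BALB/c spleen, APCmin/+ spleen had more Hdc in the M sorts (4.79 ± 0.59, adjusted p = 2.51e-07), with no overlap. In the G sorts it was 1.86 ± 0.59 (adjusted p = 0.0173), a call lost without BALB/c library 3 (1.73), APCmin/+ library 2 (1.60) or APCmin/+ library 3 (1.47) and in the fit of the 6 libraries alone (adjusted p = 0.0943). In the combined sorts it was 1.46 ± 0.59 and did not pass (adjusted p = 0.0662), while in the fit of the 6 libraries alone it did (adjusted p = 0.0182). Between G and M sorts it was higher in G in BALB/c spleen (3.88 ± 0.59, adjusted p = 1.56e-05). In APCmin/+ spleen the G against M value was 0.94 ± 0.59 (adjusted p = 0.282) and in marrow 1.29 ± 0.59 (adjusted p = 0.104, and 0.000634 in the fit of the 6 libraries alone). In marrow the G sort was higher than all cells (1.74 ± 0.59, adjusted p = 0.0148), and the M sort had 0.45 ± 0.59 (adjusted p = 0.586).

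The difference of the G against M effect between APCmin/+ and BALB/c spleens was -2.93 ± 0.84 for Hdc and did not pass (limma, adjusted p = 0.0761), and 0 members were called where 1.08% of all genes were. With the replicate number as a block in both spleens, the adjusted p of Hdc in limma was 0.0105. In that fit 2 members were called, Hdc and Prss34 (-1.12, adjusted p = 0.0254), where 2.43% of all genes were called. Same-numbered G and M libraries of BALB/c spleen were not taken as pairs (correlations of 0.109, 0.055 and 0.047). These calls thus rest partly on a block over libraries without a shown pairing.

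Cxcr2, a chemokine receptor of mature neutrophils that was picked from the neutrophil marker list after its values were seen, was 275.87, 567.27 and 850.93 TPM in APCmin/+ G libraries and 55.55, 391.15 and 338.55 TPM in APCmin/+ M libraries, against 326.28, 255.07 and 204.56 TPM in BALB/c G libraries and 7.88, 3.69 and 13.76 TPM in BALB/c M libraries. The low libraries of Cxcr2 in APCmin/+ spleen were those of Hdc. Cxcr2 changed between the APCmin/+ and BALB/c M sorts by 4.53 ± 0.47 (limma, adjusted p = 8.47e-09) and between the BALB/c G and M sorts by 4.92 ± 0.47 (adjusted p = 7.62e-09). In the intestine Cxcr2 did not exceed 2.34 TPM. The sum over the whole neutrophil marker list did not follow Hdc between the G and M sorts of APCmin/+ spleen or of marrow. It averaged 72960 ± 57780 TPM in the APCmin/+ splenic G sort and 86950 ± 43470 TPM in the M sort, where Hdc averaged 452.6 ± 263 and 262.5 ± 181.1 TPM. In BALB/c spleen it averaged 21940 ± 4861 TPM (G) and 6525 ± 1141 TPM (M), where Hdc averaged 105.8 ± 20.33 and 6.24 ± 1.057 TPM. In marrow it averaged 133600 ± 5231 TPM (G) and 133800 ± 11480 TPM (M), where Hdc averaged 149 ± 19.68 and 60.19 ± 3.449 TPM (SD, n = 3 each). The part of these transcripts in the level of Hdc was not tested.

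**Figure D4:**
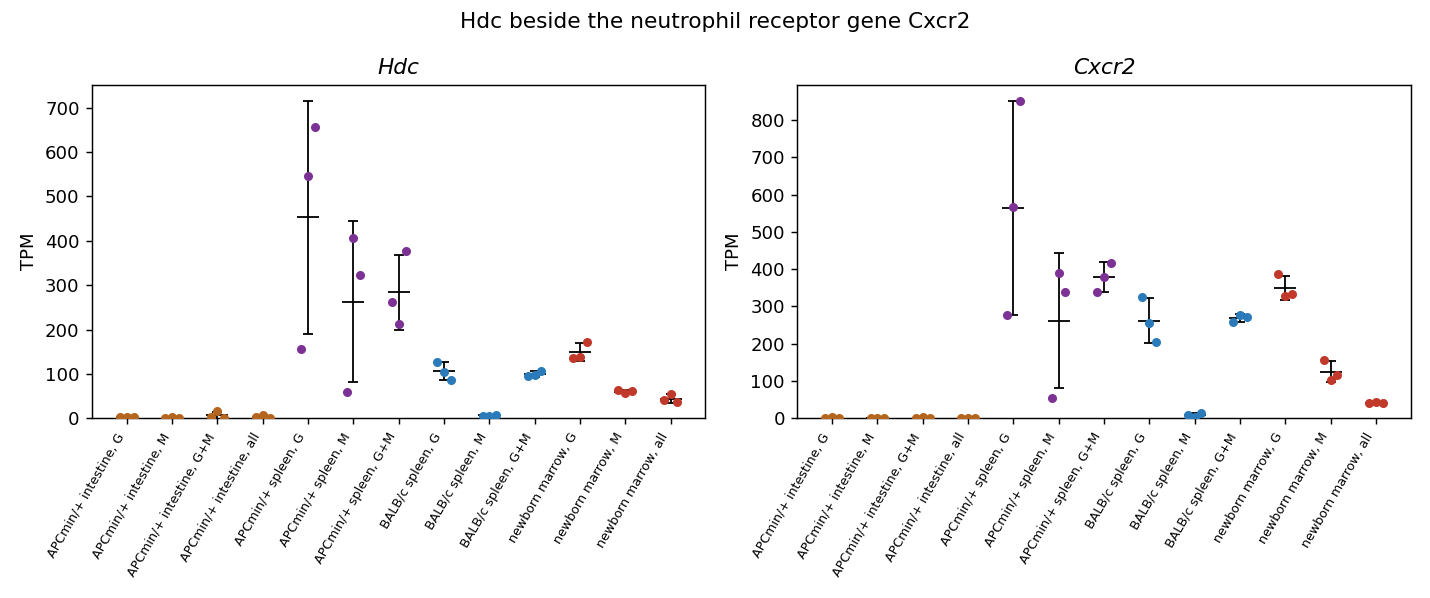
TPM of Hdc (left) and of the neutrophil receptor gene Cxcr2 (right) in each library (points, coloured by site) with the mean and SD of each group of 3 (black bars), for the 13 groups along the horizontal axis. Both genes are near 0 in the intestinal groups and low in the BALB/c splenic M sort, and both are highest on average in the APCmin/+ splenic G sort. Cxcr2 was picked from the neutrophil marker list after its values were seen. The sum over that list did not follow Hdc between the G and M sorts of APCmin/+ spleen or of marrow.

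The genes most like each member in pattern were ranked by Pearson's r of log2(TPM + 1), as a description over libraries that share sites and sorts. Only genes with a group mean of at least 5 TPM in those libraries were ranked. Members under it are absent, such as Cpa3 (highest intestinal mean 2.607 TPM) from the ranking of Mcpt1, with which its r was 0.943. Over the 12 intestinal libraries Mcpt1 was most like Mcpt2 among 11401 genes (r = 0.992, Spearman's rho = 0.958), followed by Etnk1 (0.969), Fyb (0.943), Fgl2 (0.938), Plekhg2 (0.938) and Emb (0.926). Cpa3 was most like Mcpt2 (0.944) and Mcpt1 (0.943), followed by Kctd12 (0.933), Ptgs1 (0.933), Uvrag (0.932), Snx18 (0.93) and Asb2 (0.923). The intestinal r of Mcpt1 with Hdc was -0.236. Over the 27 marrow and spleen libraries Mcpt8 was most like Prss34 among 12496 genes (r = 0.989, rho = 0.921), followed by Ndufb9 (0.969), Ubl5 (0.966), Arhgap23 (0.965), Rad51b (0.965) and Gid8 (0.961). Ms4a2 ranked 102 for Mcpt8 (0.932) and Cpa3 ranked 231 (0.918). Hdc was most like Il1r2 (r = 0.981, rho = 0.985), a decoy receptor for interleukin-1, then Ifitm1 (0.971), Dhrs9 (0.959), Mxd1 (0.955) and Hist1h2bc (0.955), and its r with Mcpt8 was -0.077. The intestinal and the marrow and spleen rankings rest on different libraries and were not compared.

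Further genes of the immunoglobulin E receptor pathway were measured in a list of 10, all of which passed the filter on low values. In the intestine against APCmin/+ spleen, 9 of the 10 were lower in the G sorts, 10 in the M sorts and 9 in the combined sorts, where 22.2%, 25.7% and 19.9% of all genes were called lower. The medians over the list were -4.02, -3.04 and -4.03 on the log2 scale, those over all genes -0.16, -0.43 and -0.15, and 0 of the list were higher. Fcer1g, the signalling chain, averaged 19.32 ± 8.446, 53.93 ± 11 and 12.26 ± 2.669 TPM in the intestinal G, M and combined sorts and 622.7 ± 185.3, 816.7 ± 225.2 and 465.9 ± 122.4 TPM in the APCmin/+ splenic ones. Syk, a kinase downstream of the receptor, averaged 19.16, 27.85 and 19.89 TPM in the intestinal sorts and 387.1, 288.2 and 351.1 TPM in the splenic ones. These genes also serve other myeloid and B cell receptors. In the marrow G sort against all cells 6 of the 10 were higher and 2 lower, and in the M sort 5 were higher and 1 lower. Of all genes 9.65% (G) and 7.87% (M) were called higher, and 9.49% (G) and 11.2% (M) lower. The medians over the list were 1.08 and 1.13, against -0.03 and -0.10 over all genes.

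Of 8 other proteases of mast cell granules, 6 passed the filter. Tpsg1, a membrane-anchored tryptase, averaged 24.96, 20.31 and 20.22 TPM in the intestinal G, M and combined sorts and 20.53 TPM in all intestinal cells. Elsewhere it did not exceed a mean of 0.107 TPM. Its intestinal means lay close together, while those of Mcpt1 were 19.3, 38.21, 4.51 and 48.04 TPM in the same order. Tpsg1 thus did not follow Mcpt1 among the intestinal groups. Ctsg, cathepsin G, which neutrophil precursors also make, averaged 19.75 TPM (marrow G), 129.3 TPM (marrow M) and 275.6 TPM (all marrow cells). Ctss, cathepsin S of antigen-presenting cells, averaged 54.77 TPM or more in each group.

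Of 12 genes of mediator synthesis and storage, 10 passed the filter, and in the intestine against APCmin/+ spleen 2 were higher in each sort (Ltc4s and Tph1) while 5, 7 and 4 were lower in the G, M and combined sorts. Of all genes 18.7%, 14.2% and 19.5% were called higher and 22.2%, 25.7% and 19.9% lower there, so 2 higher of 10 is near the share of all genes. Srgn, the proteoglycan core that packs granule proteases, averaged 26.81 ± 9.362, 115 ± 13.73 and 32.46 ± 15.37 TPM in the intestinal G, M and combined sorts and 1098 ± 482.2, 611.5 ± 203.1 and 903.9 ± 173.7 TPM in the splenic ones. In both marrow sorts 3 were higher than in all cells (Alox5, Ptgs1 and Alox5ap) and 2 were lower (Slc18a2 and Hpgds). Of all genes 9.65% (G) and 7.87% (M) were called higher there, and 9.49% (G) and 11.2% (M) lower. Hpgds, a prostaglandin D synthase, averaged 3.097 ± 0.8391 TPM in the marrow G sort and 3.617 ± 0.7312 TPM in the M sort, against 8.933 ± 1.497 TPM in all marrow cells.

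Of 17 lineage regulators and surface genes, 15 passed the filter. In the marrow G sort 4 were lower and 2 higher than in all cells, and in the M sort 6 were lower and 2 higher. Of all genes 9.49% (G) and 11.2% (M) were called lower, and 9.65% (G) and 7.87% (M) higher. The medians over the list were -0.68 (G) and -0.20 (M), against -0.03 and -0.10 over all genes. Gata1 averaged 21.93 ± 2.928 TPM in the G sort and 13.24 ± 3.947 TPM in the M sort, against 141.9 ± 1.713 TPM in all marrow cells (-2.65 ± 0.43 and -3.36 ± 0.43; limma, adjusted p = 6.24e-06 and 1.92e-07). Named after their values were seen, Gata2, a factor of mast cells, basophils and progenitors, averaged 4.087 ± 0.3742 and 3.083 ± 0.975 TPM in the sorts and 21.22 ± 2.337 TPM in all cells, and Cd200r3, a receptor of basophils and mast cells, averaged 0.7533 ± 0.09292 and 1.1 ± 0.1992 TPM in the sorts and 7.89 ± 2.554 TPM in all cells. Each of these fell without overlap in both sorts. Csf2rb, the receptor subunit shared by interleukin-3, interleukin-5 and GM-CSF, was higher in both, with 112.5 ± 6.767 TPM in the G sort and 155.4 ± 9.191 TPM in the M sort, against 39.3 ± 4.929 TPM in all cells. The other genes called higher were Il18r1 in the G sort (1.03 ± 0.27, adjusted p = 0.00175), named after its value was seen, and Itgb7 in the M sort (2.05 ± 0.28, adjusted p = 6.33e-07). Itgb7, the integrin subunit by which mast cell progenitors home to gut, was lower in the intestine than in APCmin/+ spleen in the G sorts (4.383 ± 1.151 TPM against 74.86 ± 17.16 TPM), the M sorts (17.06 ± 5.331 TPM against 97.48 ± 46.51 TPM) and the combined sorts (3.53 ± 1.342 TPM against 78.38 ± 8.186 TPM). Of the 15 genes of that list 4, 2 and 4 were higher and 8, 8 and 8 lower in the intestinal G, M and combined sorts. Beside them, 18.7%, 14.2% and 19.5% of all genes were called higher and 22.2%, 25.7% and 19.9% lower.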

How the data were processed

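Polyadenylated RNA of 39 mouse libraries was sequenced as 75-base single reads from a stranded kit, per the labels' protocols. The submitters' processing notes name bcl2fastq 2.18, STAR 2.6.1c, RSEM and the mm10 build; the version of RSEM and the gene annotation are not named there. The deposited TPM values were made by the authors, per the submitters' processing notes with RSEM, and each library sums to 1000000. TPM divides out depth and length, so read depth is unknown, a gene can fall because others rise, and no count test was run. The table was read as deposited, with 26 gene symbols restored from dates. Gene positions come from the GENCODE annotation of GRCm38 and promoters from RefSeq.

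Values were analysed as log2(TPM + 1) in the 18466 genes with at least 1 TPM in at least 3 libraries, a filter all 10 members passed. limma 3.58.1 (R 4.3.3) fitted 1 mean per group over all 39 libraries with an intensity trend (26 residual and 3.02 prior degrees of freedom), with Benjamini-Hochberg adjustment over all genes tested in each of 16 comparisons of groups and 2 differences between such comparisons. The shared fit borrows spread from groups of other tissues, and a fit of only the groups compared leaves fewer residual degrees of freedom. A call needed an adjusted p under 0.05 and a log2 change of at least 1. Fits were tested on simulated data in which the spread of a gene was the same in every group. Changes were placed only in genes of higher mean level. That test thus does not show how the fits behave for members near 0 or with unequal spread between groups. The members and lists were chosen with earlier results of these data known. All members are named, with up to 6 genes of each pathway list by highest group mean of at least 5 TPM and the 5 genes most like a member.

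Replicate numbers were taken to pair libraries where each of the 3 correlations of their deviations from the group means was over 0.1. That held between the G and M sorts of APCmin/+ spleen (0.555, 0.375 and 0.404) and of APCmin/+ intestine (0.599, 0.432 and 0.562), and between the combined sort and all cells of the intestine (0.643, 0.59 and 0.628). Alternatives were a pseudocount of 0.1 TPM, no filter on low values, rescaling by median ratios, a fit of only the groups compared, no fold minimum, the replicate block and each library left out.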

Additional observations from a re-analysis of the deposited data

Results flagged for a closer look

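3 results stood out because the difference between the G and M sorts differed between the intestine and the spleen of APCmin/+ mice in a fit with the replicate number as a block. For Mcpt1 the effect of G against M in the intestine minus that in the spleen was -1.13 ± 0.42 on the log2 scale (SE; limma, adjusted p = 0.0369). For Mcpt8 it was 1.22 ± 0.31 (adjusted p = 0.00354), and for Prss34 it was 1.36 ± 0.31 (adjusted p = 0.00152). In that fit 9.73% of all genes were called. Without the block none of the 3 passed, where 8.52% of all genes were called. Mcpt1 was at or below 0.14 TPM in every APCmin/+ splenic G and M library, and Mcpt8 and Prss34 were at or below 0.88 TPM in every intestinal library, so each value rests on a change at 1 of the 2 sites.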

How the results depend on the processing

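Of 180 member tests (10 members in 18 comparisons) 51 were called, of which 37 kept the call without any 1 library and 14 lost it without some library. Counts of members called in a comparison that differ from the main fit are given below, each with the share of all genes called under the same setting. Totals over all comparisons and counts with 1 library left out come without that share. They are thus no result about the members. A pseudocount of 0.1 TPM gave 69 calls in all, with 0 (G against M, intestine, 4.03%), 3 (BALB/c, 6.89%), 8, 8 and 8 (intestine against spleen in G, M and combined, 50.8%, 51.2% and 48.5%), 4, 5 and 3 (APCmin/+ against BALB/c, 13.9%, 17.8% and 14.6%), 9 and 8 (marrow G and M against all, 25.5% and 28.4%), 1 (intestinal G against all, 9.22%) and 5 (intestinal combined against all, 5.27%). Without the low-value filter there were 49, with 1 (G against M, BALB/c, 2.49%) and 0 (intestine, 1.33%). Median ratio rescaling gave 50, with 1 (G against M, BALB/c, 4.39%), 2 (intestine, 4.06%), 6 and 6 (intestine against spleen, G and M, 41% and 33.3%), 6 (marrow M against all, 18.2%), 1 (intestinal G against all, 5.09%) and 1 (G against M, intestine minus spleen, 8.14%). Fits of only the groups compared, which have fewer residual degrees of freedom, gave 40, with 1 (G against M, marrow, 10.5%), 0 (intestine, 0.357%), 4 (intestine against spleen, G, 40.4%), 0, 1 and 1 (APCmin/+ against BALB/c, 7.03%, 5.67% and 5.38%), 0 (intestinal G against all, 1.07%) and 0 (intestinal combined against all, 0.0271%). With no fold minimum there were 63, with 1 (G against M, marrow, 30.8%), 7, 8 and 4 (intestine against spleen, 70.0%, 72.7% and 68.4%), 5 (APCmin/+ against BALB/c, M, 38.6%), 8 (marrow G against all, 50.7%), 4 and 5 (intestinal G and combined against all, 14.7% and 5.13%) and 8 (all cells, 69.7%). The replicate block gave 58, with 2 (G against M, APCmin/+ spleen, 3.54%), 3 (intestine minus spleen, 9.73%) and 2 (APCmin/+ minus BALB/c spleen, 2.43%), against 0 in each without it, and changed no other member's call. Leaving out each library in turn gave 7 to 8 (marrow G against all), 6 to 7 (marrow M against all), 0 to 3 (intestinal G against all), 3 to 5 (intestinal combined against all), 1 to 2 (G against M, BALB/c), 0 to 2 (G against M, APCmin/+ spleen and intestine), 0 to 3 and 2 to 4 (APCmin/+ against BALB/c, G and M), 3 to 6 and 6 to 7 (intestine against spleen, G and M), 0 to 2 (intestine minus spleen) and 0 to 1 (APCmin/+ minus BALB/c). For all cells of intestine against marrow it gave 7 to 8, since Mcpt4 gained a call without intestinal all-cell library 2 (-1.07). Uncalled values that changed sign were Cpa3, G against M in APCmin/+ spleen (-0.52; -0.86 to 0.01 over single libraries left out, 0.01 without M library 2), and Hdc in the intestine, M against all (-0.61; -1.08 to 0.02, without all-cell library 2) and combined against all (0.57; -0.24 to 1.25, without combined library 2). The causes were not tested. Read depth is unknown, so how far counting error limits values near 0 cannot be stated.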

Other observations

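Genes of histamine breakdown and sensing differed between the intestine and the spleen of APCmin/+ mice. Of a list of 6 such genes, 4 passed the filter, and in each of the 3 sorts 2 were higher in the intestine (Aoc1 and Hrh1) and 2 were lower (Hnmt and Hrh2). In the G, M and combined sorts 18.7%, 14.2% and 19.5% of all genes were called higher and 22.2%, 25.7% and 19.9% lower. Aoc1, the diamine oxidase that breaks down histamine outside cells and is known in gut epithelium, had 583.9, 622.98 and 407.28 TPM in the intestinal G sort, against 0.78, 0.17 and 1.12 TPM in the splenic G sort (8.34 ± 0.32 on the log2 scale; limma, adjusted p = 3.87e-20). Hrh2, a histamine receptor, had 0.16, 0.35 and 0.54 TPM in the intestinal G sort, against 16.31, 24.88 and 31.82 TPM in the splenic one (-4.19 ± 0.27, adjusted p = 1.25e-14). Hnmt, which breaks down histamine inside cells, averaged 0.6033 ± 0.1443 TPM in the intestinal G sort and 14.22 ± 5.917 TPM in the splenic one (SD, n = 3 each).

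Of a list of 8 ligands known to instruct mast cells or basophils, 5 passed the filter. In the intestine against APCmin/+ spleen, Kitl and Il33 were higher and Tgfb1 lower in each of the 3 sorts, and Il18 was higher in the combined sorts. Among all genes 18.7%, 14.2% and 19.5% were called higher there and 22.2%, 25.7% and 19.9% lower, in the G, M and combined sorts. Kitl, the ligand of the receptor Kit, had 30.11, 37.35 and 37.2 TPM in the intestinal G sort, against 2.73, 1.26 and 1.69 TPM in the splenic G sort (3.66 ± 0.33, adjusted p = 2.71e-11). Il33, an alarmin of barrier tissues, averaged 14.79 ± 3.853 TPM in the intestinal G sort and 0.08667 ± 0.125 TPM in the splenic one. The epithelial marker sum given above moved with these genes, and its part in them was not tested.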
